A study of Drosophila melanogaster with 12 samples.

Results

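The muscle genes of the fly foreleg are described here through 32 listed genes for the sarcomere and for calcium handling in muscle, chosen by name from 17807 FlyBase gene identifiers in the count table. All 32 were found, Unc-89 through its current symbol Obsc, and all 32 passed the filter on low counts. Polyadenylated RNA of the forelegs of Drosophila melanogaster males was sequenced, with 3 biological replicates for each of 4 genotypes and 12 libraries in all. The series describes the males of CO13N and of the CS/CO13N hybrid as selective. It describes those of CS and RG11N as promiscuous. No treatment, transgene, age or number of pooled flies is given in the labels, and neither is the direction or generation of the hybrid cross. P-values set differences between strains, or slopes, against the spread between libraries of the same strain, estimated jointly over the 4 genotypes.

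A sarcomere is the contractile unit of striated muscle: thick filaments of myosin pull on thin filaments of actin, which are anchored at the Z-disc. Calcium released from the sarcoplasmic reticulum through the ryanodine receptor binds troponin C, which lets troponin T, troponin I and tropomyosin move and expose actin to myosin, and the SERCA pump then takes the calcium back. Leg muscles of the fly are tubular, with contraction driven by each nerve impulse, whereas the fibrillar indirect flight muscles of the thorax are stretch-activated and use special isoforms, among them Act88F, flightin and TpnC4.

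Total counts per library ranged from 26374831 to 36034966. The 32 genes took 0.396% to 3.04% of the counts of a library. The share was 3.04%, 0.607% and 0.648% in CO13N replicates 1, 2 and 3, and 1.71%, 0.396% and 0.826% in those of the hybrid. It was 2.79%, 1.62% and 0.740% in CS, and 0.397%, 1.30% and 0.894% in RG11N. CO13N replicate 1 and CS replicate 1 held the most, hybrid replicate 2 and RG11N replicate 1 the least, and the ranges of the 4 groups overlapped. In whole legs, fewer muscle fibres and less muscle RNA per fibre cannot be told apart. Summed odorant receptor transcripts, which are known from the antenna and palp, reached 88.6 to 250.3 CPM in the 3 CS libraries, hybrid replicate 3 and RG11N replicate 3, against 13.4 to 24.1 CPM in the other 7.

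Most muscle transcripts differed more between replicates than between strains. The within-strain SD of log2 CPM (CPM, counts scaled to library size with TMM factors) had a median of 1.31 over the 32 genes, against 0.33 over all 10996 genes tested. Of the 32, 26 lay above the upper quartile of all genes, 0.86. The share of a gene's variance that lay between strains had a median of 16.9%, against 35.7% over all genes, and 30 of the 32 were below that median. With equal strain means a share of about 27.3% is expected (3 of 11 degrees of freedom). The median gene of all thus also varied more within strains than between them, though to a lesser degree. The same libraries stood out for most genes: the highest library was CO13N replicate 1 for 22 genes and CS replicate 1 for 7, and the lowest was RG11N replicate 1 for 17 and hybrid replicate 2 for 11. Over 5-fold between the highest and lowest library was seen for 27 genes.

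**Figure D1:**
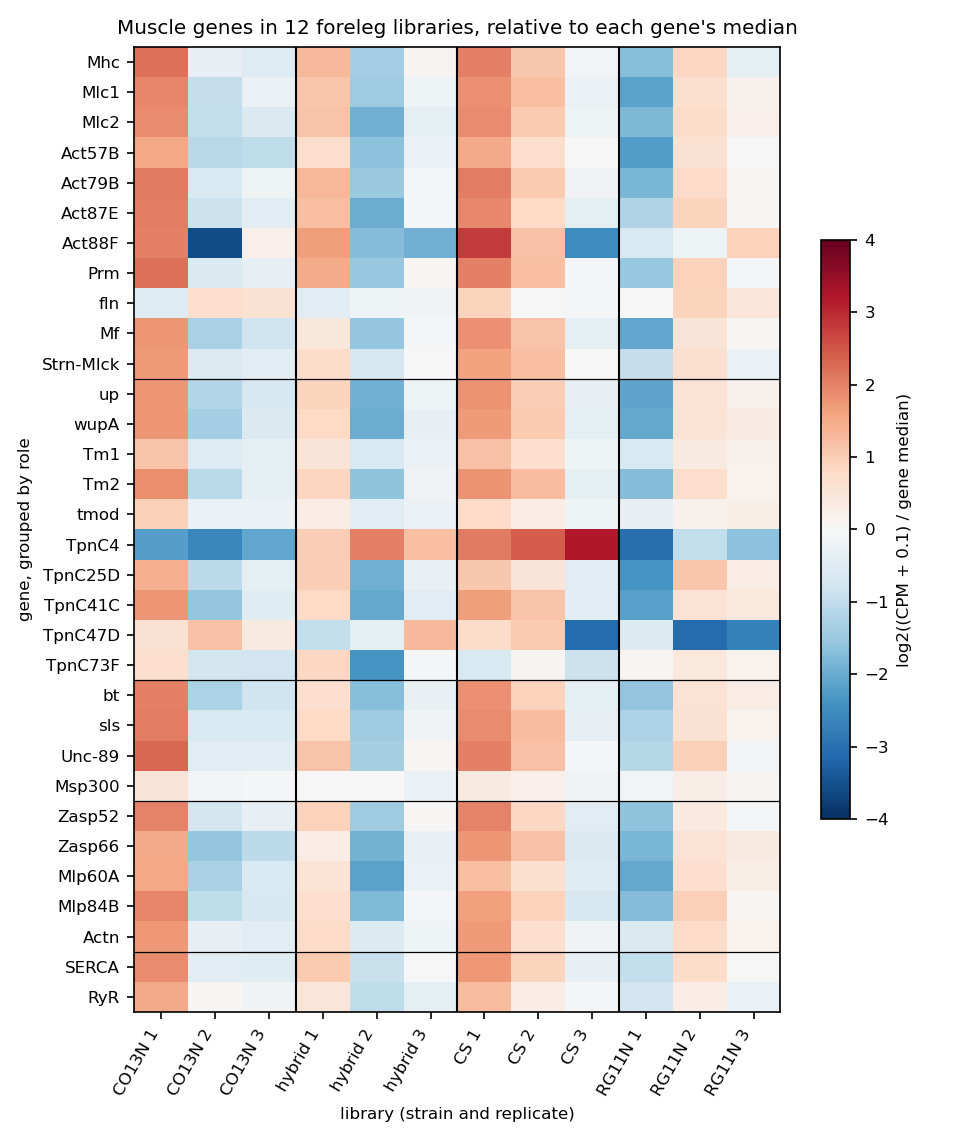
Log2 level of the 32 muscle genes (rows, grouped by role) in the 12 libraries (columns), as CPM plus 0.1 relative to each gene's median library; red is above and blue below the median. Most rows share 1 pattern, red in CO13N replicate 1 and CS replicate 1 and blue in hybrid replicate 2 and RG11N replicate 1, while the TpnC4 row is blue in the CO13N and RG11N libraries and red in those of the hybrid and CS.

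The motor and filament genes show the pattern. Mhc (FBgn0264695) encodes the muscle myosin heavy chain. Mhc counted 5030.5, 873 and 758 CPM in replicates 1, 2 and 3 of CO13N, and 4412, 2288 and 1011 CPM in those of CS. The levels were 2699, 429.9 and 1179.5 CPM in the hybrid and 333, 1946 and 848 CPM in RG11N. Its highest and lowest libraries differed by 15.1-fold, and the groups overlapped in all 6 pairs of strains. The means were 2570.2 ± 1718 CPM in CS, 2220.3 ± 2434 in CO13N, 1436 ± 1156 in the hybrid and 1043 ± 824 in RG11N (SD, n = 3 each). In edgeR's quasi-likelihood F test that the 4 strain means are equal, the adjusted p of Mhc was 0.873. The log2 difference was -0.21 ± 1.04 (SE) for CO13N minus CS and -1.30 ± 1.06 for RG11N minus CS, with adjusted p 0.972 and 0.593 (edgeR). These differences were not larger than the spread between replicates.

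Mlc2, the regulatory myosin light chain, had the highest level per kb of exon among the thick filament genes, 409.9 CPM per kb as the mean of all libraries, against 202 for the alkali light chain Mlc1 and 201 for Mhc. Mlc2 counted 2329.8, 315 and 424 CPM in replicates 1, 2 and 3 of CO13N, and 2336, 1299 and 539 CPM in those of CS. It stood at 1394, 165 and 491 CPM in the hybrid and 180.4, 1044 and 729 CPM in RG11N. As for Mhc, CO13N replicate 1 and CS replicate 1 were highest and hybrid replicate 2 and RG11N replicate 1 lowest. Within each pair the order was the reverse of that for Mhc. Prm (paramyosin, a thick filament core protein) and Mf (myofilin, a thick filament protein) averaged 74.5 and 79.1 CPM per kb and ranged 13.3-fold and 15.1-fold over the libraries. Strn-Mlck, a giant protein with a myosin light chain kinase domain, averaged 3.88 CPM per kb and ranged 6.33-fold. The CPM ratio of Mlc2 to Mlc1 ranged from 2.38 to 4.27 in all libraries while Mlc2 itself ranged 14.2-fold.

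Of the 4 actin genes, Act79B, known from the tubular muscles of the leg and thorax, was the most abundant at 435 CPM per kb, the highest level of the 32 genes. Act79B counted 1826, 281 and 369.7 CPM in replicates 1, 2 and 3 of CO13N, and 1771, 888 and 385 CPM in those of CS. Further values were 1086, 152 and 402 CPM in the hybrid and 119, 722 and 457 CPM in RG11N. These libraries ranked much as they did for Mhc. Act87E and Act57B, known from larval and adult body muscles, averaged 253 and 78.8 CPM per kb. Of the summed actin level per kb, Act79B made up 46.1 to 60.3%, Act87E 26.4 to 44.7% and Act57B 8.20 to 14.9% across the libraries. The share of each varied less than its level, which ranged 15.3-fold, 16.4-fold and 14.0-fold. The actin genes are close paralogs, and how reads that align to several genes were counted is not given in the sources used here, so the split between them is uncertain.

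Act88F, the actin of the indirect flight muscle, stood at a mean of 3.77 CPM per kb and had the largest within-strain SD of the 32 genes, 2.30. Act88F counted 13.4, 0.183 and 3.74 CPM in replicates 1, 2 and 3 of CO13N, and 23.5, 7.43 and 0.487 CPM in those of CS. Libraries of the other groups held 10.5, 0.903 and 0.788 CPM in the hybrid and 2.11, 2.85 and 6.23 CPM in RG11N. It was high in CS replicate 1 and CO13N replicate 1 and low in CO13N replicate 2 and CS replicate 3, so that the groups overlapped. Its share of summed actin was 0.0393 to 0.827%. Flightin (fln), a thick filament protein of flight muscle, stayed between 0.454 and 1.36 CPM. Reads of fln cannot be told from those of the antisense gene asRNA:CR45161, which covers 61.6% of its exon bases, unless counting used strand, which is not given. salm, a transcription factor that sets the fibrillar type, was at 0 to 3.75 CPM. Beside the abundant sarcomere genes of leg muscle, these flight muscle markers were low in every library.

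In the thin filament control apparatus, up (troponin T) and wupA (troponin I) had the highest levels per kb, 231 and 131 CPM per kb. up counted 1443, 188 and 261 CPM in replicates 1, 2 and 3 of CO13N, and 1470.2, 839 and 335 CPM in those of CS. Its remaining values were 785, 111 and 372 CPM in the hybrid and 98.9, 626 and 481 CPM in RG11N. The 2 troponin subunits moved together, and the CPM ratio of up to wupA ranged from 1.99 to 2.54. For wupA the values were 617, 395 and 149 CPM in CS, 649, 74.1 and 128 in CO13N, 332, 48.0 and 152 in the hybrid and 46.3, 279.9 and 241 in RG11N. Tropomyosin is encoded by Tm1 and Tm2. Tm2 ranged 12.3-fold over the libraries and Tm1, which also makes cytoplasmic tropomyosins, 3.42-fold. tmod, tropomodulin, which caps thin filaments, ranged 2.63-fold.

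TpnC4 did not share this pattern and differed between strains. TpnC4 (FBgn0033027) encodes the troponin C isoform known from indirect flight muscle, where it serves stretch activation. It lies at 2R:5503437-5507866 on the minus strand (BDGP6, the assembly of dm6), within the span of Ugt50B3 (2R:5496674-5549543, plus strand) and without exon bases in common with another gene. TpnC4 counted 0.272, 0.183 and 0.309 CPM in replicates 1, 2 and 3 of CO13N, and 7.17, 9.18 and 15.8 CPM in those of CS. The rest were at 3.29, 6.86 and 3.91 CPM in the hybrid and 0.114, 0.784 and 0.452 CPM in RG11N. The CS libraries were highest, the hybrid libraries came next, and those of CO13N and RG11N were lowest, at 4 to 22 counts per library. No library of CS overlapped the hybrid, and none of either overlapped CO13N or RG11N. The means were 10.7 ± 4.54 CPM in CS, 4.69 ± 1.91 in the hybrid, 0.450 ± 0.335 in RG11N and 0.255 ± 0.0647 in CO13N (SD, n = 3 each).

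The adjusted p for any difference between the 4 strains was 2.32e-05 for TpnC4, and 93.1% of its variance lay between strains. TpnC4 was lower in CO13N than in CS, with a log2 difference of -5.38 ± 0.68 (SE, adjusted p 6.06e-05, edgeR). RG11N minus CS was -4.58 ± 0.65 (adjusted p 0.000175, edgeR). The hybrid was higher than CO13N by 4.19 ± 0.65 (adjusted p 0.00605, edgeR) and higher than RG11N by 3.39 ± 0.62 (adjusted p 0.00279, edgeR). With limma's voom and quality weights the calls for the hybrid were lost, at adjusted p 0.120 and 0.0570. Leaving out 1 library in turn kept all 4 calls, with adjusted p up to 0.0494 for hybrid minus CO13N.

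The hybrid, at 43.7% of the CS mean, stood near the arithmetic mean of its parents, 5.49 CPM. Against the mean of the parents on the log2 scale it was 1.497 ± 0.47 (adjusted p 0.663, edgeR). Hybrid minus CS was -1.19 ± 0.55 (adjusted p 0.531, edgeR), although the libraries did not overlap. CO13N minus RG11N was -0.80 ± 0.63 (adjusted p 0.602, edgeR). The selective mean minus the promiscuous mean was -0.997 ± 0.42 (adjusted p 0.226, edgeR). High TpnC4 was seen in 1 genotype of each class, CS and the hybrid. The other 3 flight muscle markers gave adjusted p of 0.945 (Act88F), 0.990 (fln) and 0.997 (salm) in the edgeR test of any strain difference. Of the 3, 0 were at an unadjusted p under 0.05, where 18.6% of all genes were. DESeq2 and voom called 0 of the 3, and 1322 and 855 of all 10996 genes. For 3 genes these counts are near the shares of all genes.

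**Figure D2:**
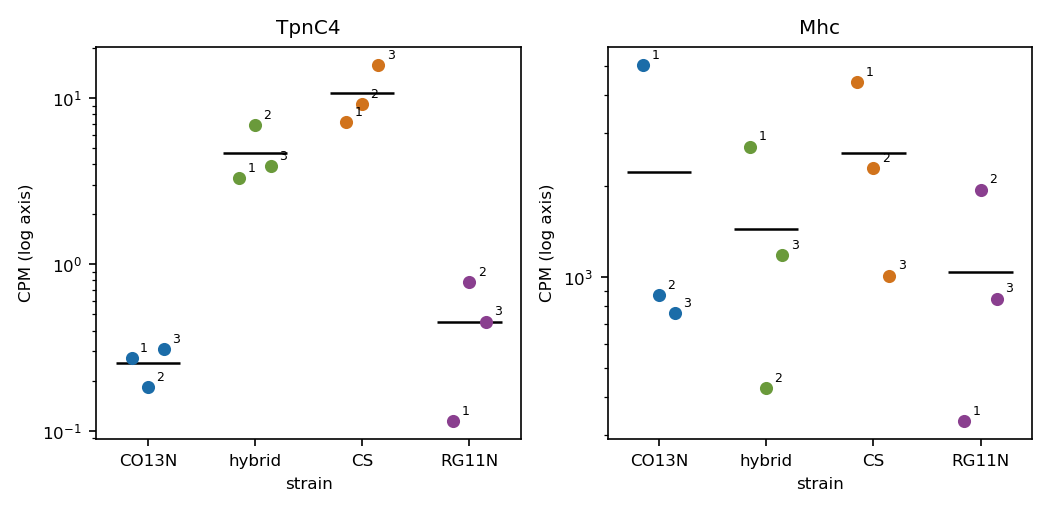
CPM of TpnC4 (left) and Mhc (right) on log axes in each library, by strain; points are libraries with their replicate number and horizontal lines are strain means of 3. TpnC4 separates CS and the hybrid (3.29 CPM or more) from CO13N and RG11N (0.784 CPM or less), while Mhc overlaps between the strains.

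TpnC4 did not follow the muscle level. The muscle level of a library is taken as the mean log2 CPM of 10 core sarcomere genes (Mhc, Mlc1, Mlc2, Act57B, Act87E, Tm2, wupA, up, Prm and bt), which ranged from 6.44 to 10.18. Within CS, TpnC4 was highest in replicate 3, which had the lowest muscle level of that strain, and within the hybrid it was highest in replicate 2, again the lowest. With the muscle level as a covariate, CO13N minus CS was -5.40 (adjusted p 3.68e-05, edgeR) and hybrid minus CO13N was 4.16 (adjusted p 0.00588, edgeR). With odorant receptor sums as the covariate in place of the muscle level, the same differences were -5.52 (adjusted p 0.00496) and 4.24 (adjusted p 0.0178, edgeR). No strain difference was fitted with both covariates at once. Hybrid replicates 1 and 2, with low odorant receptor sums, had 3.29 and 6.86 CPM of TpnC4, and RG11N replicate 3, with a high sum, had 0.452.

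**Figure D3:**
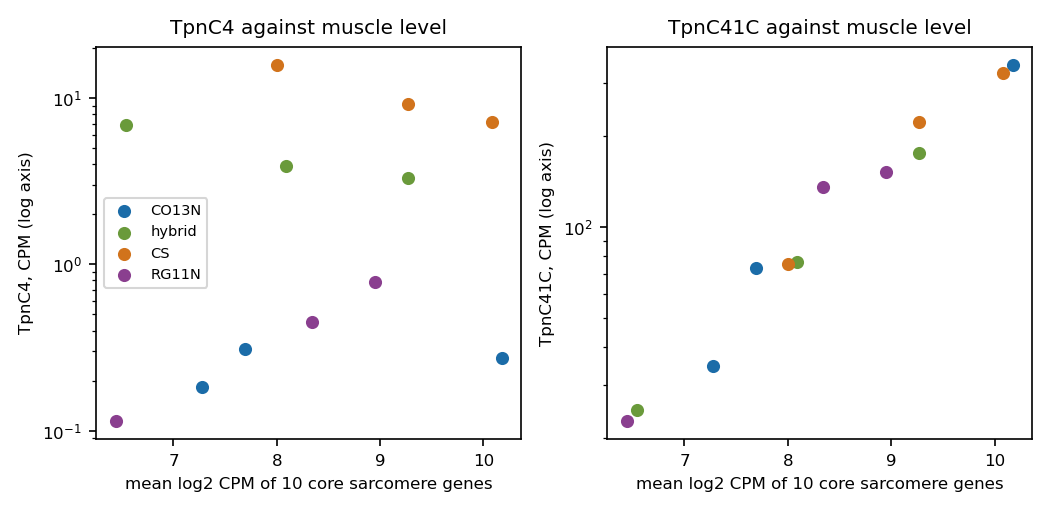
CPM of TpnC4 (left) and TpnC41C (right) on log axes against the muscle level (mean log2 CPM of the 10 core genes); each point is a library, coloured by strain. TpnC41C rises with the muscle level in every strain, from 22.7 to 344 CPM, whereas TpnC4 falls into a high set (CS and hybrid) and a low set (CO13N and RG11N) at all muscle levels.

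Genes around TpnC4 were measured as well. Of the 4 tested genes whose bodies lie within 100 kb, Ugt50B3, which contains TpnC4, differed by 0.08 ± 0.20 in CO13N minus CS (log2, SE; adjusted p 0.937, edgeR). For stw, CG30440 and Fis1 the difference was 0.05, -0.56 and -0.36, with edgeR adjusted p 0.958, 0.188 and 0.303. CG30440 was called in the test of any difference between strains (adjusted p 0.0326, edgeR). None of the 4 was called in CO13N minus CS. TpnC41C, on the same arm, ends 433 kb before TpnC4 starts.

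The other 4 troponin C genes gave a different picture. TpnC41C, known from adult muscle, was the main isoform at 73.7 CPM per kb, and TpnC25D came next at 29.5. TpnC4, TpnC73F and TpnC47D averaged 4.75, 3.60 and 1.10 CPM per kb. TpnC41C counted 344, 34.7 and 73.3 CPM in replicates 1, 2 and 3 of CO13N, and 323, 223 and 75.3 CPM in those of CS. The levels were 175, 24.7 and 76.4 CPM in the hybrid and 22.7, 153 and 136 CPM in RG11N. TpnC41C was high and low in the libraries where Mhc was. TpnC25D counted 63.0, 42.3 and 21.5 CPM in CS, 81.7, 14.3 and 22.8 in CO13N, 59.0, 7.70 and 24.2 in the hybrid and 5.58, 64.1 and 35.97 in RG11N, again with RG11N replicate 1 and hybrid replicate 2 lowest.

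TpnC73F counted 6.56, 2.35 and 2.28 CPM in replicates 1, 2 and 3 of CO13N, and 2.58, 4.32 and 2.12 CPM in those of CS. It stood at 7.08, 0.703 and 3.77 CPM in the hybrid and 4.19, 5.38 and 4.39 CPM in RG11N. These libraries of TpnC73F overlapped between all strains. TpnC47D counted 1.21, 1.83 and 0.988 CPM in replicates 1, 2 and 3 of CO13N, and 1.33, 1.67 and 0 CPM in those of CS. Further values were 0.329, 0.569 and 1.999 CPM in the hybrid and 0.484, 0 and 0.0323 CPM in RG11N. TpnC47D had no count in CS replicate 3 and RG11N replicate 2, where a count of 0 allows up to 0.104 and 0.1003 CPM (3 counts; counting error only), and its RG11N libraries lay below those of CO13N. Its CO13N minus RG11N difference was 2.92 ± 1.80 on the log2 scale (SE, adjusted p 0.456, edgeR).

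As a share of summed troponin C level per kb, TpnC41C made up 45.7 to 73.2% and TpnC25D 20.0 to 37.1%. TpnC4 made up 3.59%, 6.38% and 23.9% in CS replicates 1, 2 and 3 and 2.56%, 28.1% and 6.52% in the hybrid. In CO13N it was 0.125%, 0.622% and 0.596%, and in RG11N 0.631%, 0.666% and 0.504%. The share was largest in the libraries of CS and the hybrid with the least muscle RNA, where TpnC41C and TpnC25D were low and TpnC4 was not. Troponin C genes are paralogs, and their split is uncertain for the same reason as that of the actins.

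**Figure D4:**
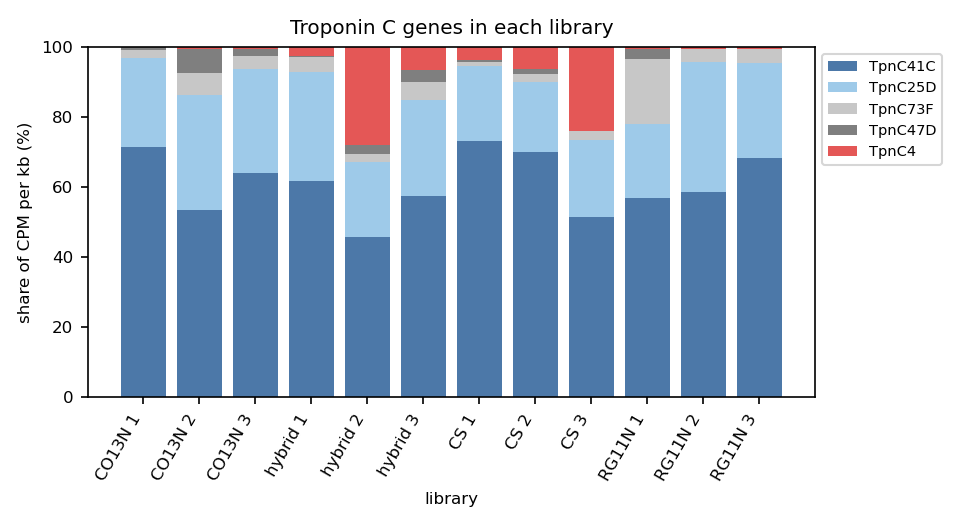
Share of each troponin C gene in the summed troponin C level per kb of exon, in percent, in each library. TpnC41C and TpnC25D fill most of each bar, and TpnC4 (red) reaches 28.1% in hybrid replicate 2 and 23.9% in CS replicate 3, against under 1% in the CO13N and RG11N libraries.

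Among the elastic and giant proteins, bt (projectin, a giant protein of the sarcomere) and Msp300 (a nesprin that ties nuclei to the cytoskeleton) had the highest levels per kb, 18.3 and 13.0 CPM per kb. bt counted 1453, 151 and 209 CPM in replicates 1, 2 and 3 of CO13N, and 1288, 683 and 276 CPM in those of CS. Libraries of the other groups held 582, 111 and 297 CPM in the hybrid and 122, 538 and 442 CPM in RG11N. bt followed the pattern of Mhc. Msp300 counted 1226, 798 and 819 CPM in replicates 1, 2 and 3 of CO13N, and 1104, 988 and 773 CPM in those of CS. Its remaining values were 854, 864 and 716 CPM in the hybrid and 798, 1034 and 932 CPM in RG11N. Msp300 had the smallest within-strain SD of the 32 genes, 0.25, and a 1.71-fold range. sls, a titin-like protein of the Z-disc, and Unc-89 (FlyBase Obsc), the obscurin of the M-line, ranged 11.2-fold and 12.5-fold.

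At the Z-disc, the muscle LIM protein gene Mlp84B and the PDZ-domain gene Zasp66 were highest, at 128 and 68.8 CPM per kb. Mlp84B counted 1116, 140.0 and 183 CPM in replicates 1, 2 and 3 of CO13N, and 898, 546 and 182 CPM in those of CS. The rest were at 451, 83.4 and 268 CPM in the hybrid and 86.4, 547 and 304 CPM in RG11N. Zasp66 counted 512, 342 and 101 CPM in CS, 431, 51.6 and 73.8 in CO13N, 186, 40.9 and 123 in the hybrid and 42.4, 227 and 192 in RG11N. Both were highest in CO13N replicate 1 and CS replicate 1 and lowest in hybrid replicate 2 and RG11N replicate 1, and the groups overlapped. Zasp52, Mlp60A and Actn, which encodes the actin crosslinker alpha-actinin, ranged 12.03-fold, 12.8-fold and 5.02-fold.

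For calcium handling, SERCA averaged 242 and RyR, the ryanodine receptor, 9.36 CPM per kb. SERCA counted 4988, 1006 and 962 CPM in replicates 1, 2 and 3 of CO13N, and 4411, 2466 and 1075 CPM in those of CS. The levels were 2784, 717 and 1352 CPM in the hybrid and 677, 2228 and 1325 CPM in RG11N. SERCA shares 16.03% of its exon bases with the opposite gene CG2812. RyR counted 357, 130.2 and 114.6 CPM in replicates 1, 2 and 3 of CO13N, and 299, 155 and 121 CPM in those of CS. It stood at 176, 62.0 and 97.6 CPM in the hybrid and 74.4, 153 and 104 CPM in RG11N. RyR had the lowest any-strain p among the 31 genes other than TpnC4, with an adjusted p of 0.684 (edgeR).

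Across the strains, edgeR called 1 of 32 genes, TpnC4, in the test of any difference, where 6.47% of all genes were called. The same gene alone was called in CO13N minus CS (3.14% of all genes), RG11N minus CS (5.77%), hybrid minus RG11N (4.47%) and hybrid minus CO13N (0.255%). These comparisons share libraries. In CO13N minus RG11N 0 were called (4.1% of all genes), with 0 at an unadjusted p under 0.05, against 1816 of all 10996 genes. In hybrid minus CS (0.973%), in selective minus promiscuous (3.92%) and in the hybrid minus the mid-parent (0.109%) 0 were called. In each of them 1 gene, TpnC4, was at an unadjusted p under 0.05, against 1000, 1829 and 458 of all 10996 genes. DESeq2 and voom also called 0 in these 4 comparisons. The median log2 difference of the 32 genes was -0.28 in CO13N minus CS, -1.04 in RG11N minus CS, and -0.95 in hybrid minus CS, against 0.01, 0.00 and 0.00 over all genes. It was 0.65 in CO13N minus RG11N, -0.60 in hybrid minus CO13N and 0.01 in hybrid minus RG11N, against 0.02, -0.01 and 0.01. The medians were below 0 wherever CS was subtracted, and the genes behind each median share their libraries.

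Non-overlapping libraries were found for few of the 32 genes. TpnC4 was the 1 gene in CO13N and CS (19.7% of all genes did not overlap), in RG11N and CS (21.5%) and in hybrid and CO13N (11.5%). In CO13N and RG11N it was TpnC47D (22.7%). In hybrid and CS (14.6%) and in hybrid and RG11N (23.3%) TpnC4 and fln did not overlap, and for fln the hybrid was lower in both, at edgeR adjusted p 0.953 and 0.868. For the 31 genes other than TpnC4 the median fold between the highest and lowest strain mean was 2.19. Within a strain the median fold between highest and lowest library was 6.64 in CO13N, 4.25 in CS, 5.47 in the hybrid and 4.88 in RG11N.

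The spread between replicates sets what the strain tests can show. The median standard error of CO13N minus CS over the 31 genes other than TpnC4 was 1.04 on the log2 scale. With the muscle level as a covariate it was 0.16, and over the genes among them that are not core genes 0.17. At equal muscle level TpnC4 was still the 1 of 32 genes called in the test of any difference, where 6.77% of all genes were called. The 10 core genes make up the covariate, so their result in this fit is nearly fixed in advance. Only the 22 genes outside the core are tested by it. After TpnC4 the lowest adjusted p in this test was 0.105, for RyR, which is outside the core (edgeR). Over the 6 pairs of strains the lowest for the other 31 genes, core genes included, was 0.0744, in CO13N minus RG11N (edgeR). At an unadjusted p under 0.05 were 4 of them in that pair, against 1842 of all 10996 genes. The number ran from 0 in hybrid minus CS to 5 in RG11N minus CS, against 819 and 1865 of all genes.

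Which genes followed the muscle level was measured as a slope, the log2 change of a gene per log2 unit of muscle level at equal strain. This test was added after the data were seen, and it is circular for the 10 core genes, whose slopes of 0.94 to 1.04 are a description. Of all genes 1.89% were called, and 1.86% with a positive slope, with a median slope of -0.01. Of the 22 genes outside the core 16 were called (edgeR, adjusted p under 0.05), each with a positive slope. Without CO13N replicate 1 the number of all genes called was 128 in place of 208, and the same 16 of the 22 were called. These 16 were called in each of the 12 omissions of 1 library, and Msp300 was added without hybrid replicate 2. The slopes were close to 1 for Act79B (1.001 ± 0.04), TpnC41C (1.07 ± 0.06), TpnC25D (1.01 ± 0.08), Mlp84B (1.02 ± 0.05), Zasp66 (0.99 ± 0.06), Mf (0.97 ± 0.05) and Mlp60A (0.98 ± 0.05), and slightly lower for Unc-89 (0.92 ± 0.05), Zasp52 (0.92 ± 0.05) and sls (0.89 ± 0.05).

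A smaller slope, still called, was found for SERCA (0.78 ± 0.05), Strn-Mlck (0.67 ± 0.06), Actn (0.64 ± 0.07), RyR (0.52 ± 0.05), Tm1 (0.50 ± 0.04) and tmod (0.34 ± 0.04). Actn and Tm1 are known to work in cells other than muscle as well. Actn shares 15.7% and 3.72% of its exon bases with the opposite genes east and CG4313 and 5.03% with usp on the same strand, so its level and slope are uncertain. The 6 genes that were not called were Act88F (1.22 ± 0.39, adjusted p 0.379), TpnC73F (0.53 ± 0.18, 0.259), Msp300 (0.14 ± 0.04, 0.171), TpnC4 (-0.04 ± 0.21, 0.999), fln and TpnC47D (edgeR). DESeq2 and voom each called 18 of the 22, with Act88F and Msp300 added to those of edgeR. Over all 10996 genes they called 302 and 299. fln and TpnC47D are among the least counted of the 32 genes. With TpnC4 they held the 3 slopes below 0, against 29 above.

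**Figure D5:**
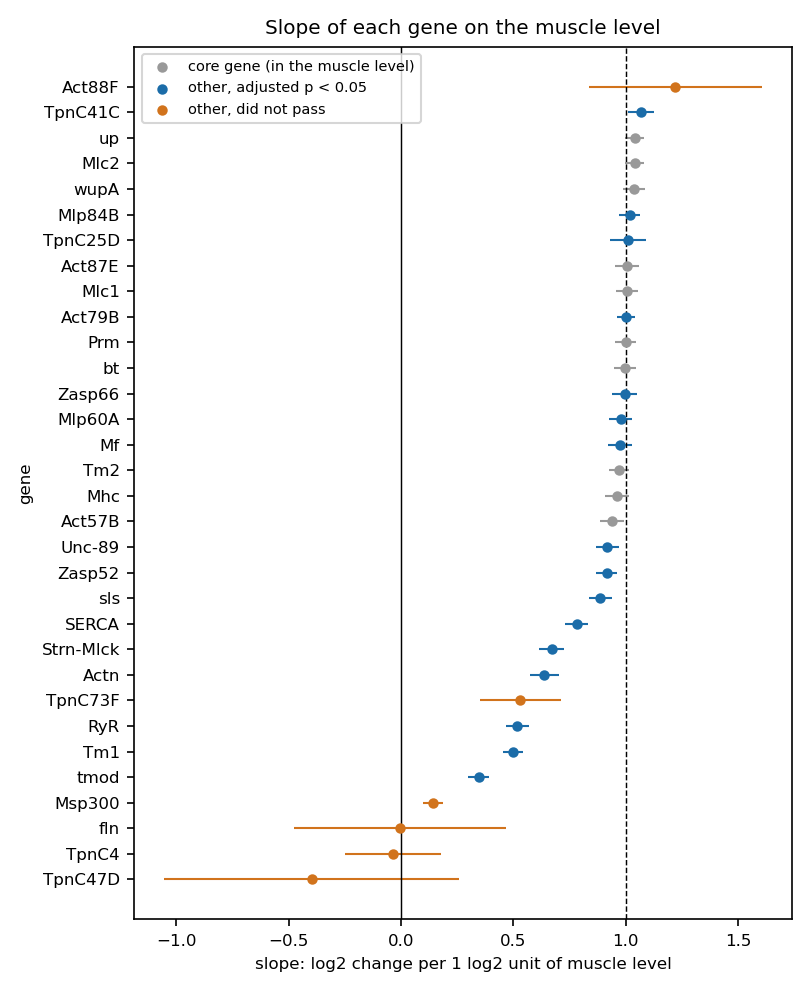
Slope of each of the 32 genes on the muscle level (log2 change per log2 unit) with its standard error as a bar; grey points are the 10 genes that define the level, blue points were called and orange points were not. The 10 genes that define the level lie near the dashed line at 1 by construction. Of the 22 others, 10 lie near it, at 0.89 to 1.07. SERCA, Strn-Mlck, Actn, RyR, Tm1 and tmod were called and lie lower, between 0 and 1. TpnC73F and Msp300 also lie there but were not called.

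Other lists of muscle-related genes are to be read against the shares of all genes called, 1.89% on the slope and 6.47% between strains. Of 19 other tested sarcomere and attachment genes, 5 rose with the muscle level, among them Mp20 (1.06 ± 0.06), a calponin-like protein, and the thin filament length regulator sals (1.01 ± 0.07). The list had 1 gene called between strains, Chd64, a calponin-like protein, with means of 127 ± 5.52 CPM in RG11N, 66.7 ± 8.44 in CS, 87.3 ± 12.4 in CO13N and 71.1 ± 7.71 in the hybrid (edgeR adjusted p 0.000659). The highest of these was RG11N. The neuromuscular list holds 6 genes, for glutamate receptors and a partner, and 5 were tested. Of these 1 rose, GluRIIC (1.82 ± 0.33), and 3 had an unadjusted p under 0.05 on the slope in edgeR (6.78% of all genes). DESeq2 called GluRIIA as well, with 302 of 10996 genes called in all. Between strains 0 of the 5 were called by edgeR, DESeq2 or voom. In edgeR 0 were at an unadjusted p under 0.05 between strains (18.6% of all genes).

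Of 15 tested muscle regulators 0 were called on the slope by edgeR, DESeq2 or voom, and 1 had an unadjusted p under 0.05 in edgeR, where 6.78% of all genes did, so that both counts are near the share of all genes. Mef2, the transcription factor that drives muscle genes, had a slope of 0.07 ± 0.05. Between strains 2 were called (6.47% of all genes), both RNA-binding splicing regulators. bru1, which sets flight muscle splicing, was at 32.3 ± 1.04 CPM in RG11N, 13.7 ± 1.56 in CS, 24.4 ± 0.475 in CO13N and 18.4 ± 3.49 in the hybrid (adjusted p 0.00113, edgeR). mbl (muscleblind) was highest in RG11N, at 1161 ± 171 CPM against 738 to 834 in the others (adjusted p 0.0206, edgeR). mbl is also known from neurons, of whose 5 markers nSyb, cpx, brp and elav were called between strains as well, with summed neuron markers at 3071 to 3681 CPM in RG11N and 1963 to 2601 CPM elsewhere; the part of neurons in these differences was not tested.

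Of 13 tested genes for excitation and calcium, jp (junctophilin, which joins the plasma membrane to the reticulum) rose with the muscle level (0.39 ± 0.06), and Cam (calmodulin) and the calcium channel gene Orai were called between strains (edgeR adjusted p 0.0207 and 0.0277). Both were highest in RG11N, Cam at 5297 ± 856 CPM and Orai at 225 ± 7.82 CPM. Of 16 tested energy metabolism genes 5 rose with the muscle level, namely Argk1 (arginine kinase, 0.38 ± 0.05), Glyp (glycogen phosphorylase, 0.54 ± 0.05), Glys (glycogen synthase, 0.53 ± 0.06), Gapdh1 (0.27 ± 0.06) and Ald1 (aldolase, 0.20 ± 0.05). Their slopes were all below those of the sarcomere core. Gpdh1, glycerol-3-phosphate dehydrogenase, was called between strains, at 799.7 ± 131 CPM in CS and 406 ± 69.9 in RG11N (adjusted p 0.00288, edgeR). DESeq2 called 5 energy metabolism genes between strains, with 1322 of all 10996 genes called, and voom 3, with 855 of 10996. Gpdh1 was among them in both. At an unadjusted p under 0.05 in edgeR were 13 of the 16 on the slope (6.78% of all genes) and 7 between strains (18.6%).

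Among markers of other tissues, 4 of 8 tendon genes had an unadjusted p under 0.05 on the slope in edgeR, against 6.78% of all genes, as did 1 of 3 glial, 1 of 5 hemocyte and 0 of 5 neuron, 3 fat body and 8 antennal genes. After adjustment edgeR called 0 in each of these lists, against 1.89% of all genes. DESeq2 called 1 hemocyte gene, with 302 of 10996 genes called on the slope in all. With voom it was 1 tendon gene, with 299 of 10996 in all. Between strains, slow (tendon) was lowest in CS, at 1.29 ± 0.445 CPM against 6.44 ± 1.52 in CO13N (adjusted p 0.0211, edgeR); voom called 0 of the 8 tendon genes between strains. The glial genes loco and moody were called too, at edgeR adjusted p 0.00378 and 0.00636, and so was the hemocyte gene Pxn, at 0.0476 with its highest mean in CS.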

How the data were processed

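The deposited counts per FlyBase gene are raw, and were made by the authors from polyA-selected RNA of male forelegs in Nextera XT libraries, per the labels' protocols; Subread and the build dm6 are named in the submitters' processing notes, without versions or settings. Strandedness, multi-mapped reads and the annotation release are not given in the sources used here. Symbols, exon lengths and positions came from Ensembl release 115 (BDGP6.54), where 17710 of 17807 identifiers matched. The members and gene lists were chosen with earlier results of these data known. Genes with enough counts by filterByExpr (minimum count 10) were fitted after TMM scaling by edgeR (4.0.16, under R 4.3.3). A single model held the 4 strain means and left 8 residual degrees of freedom for robust quasi-likelihood tests; p-values were adjusted over all 10996 genes by Benjamini-Hochberg, and a gene was called at an adjusted p under 0.05. Standard errors of log2 differences were approximated from F. Log2 CPM used a prior count of 2. The muscle slope had 7 residual degrees of freedom. The scripts were tested on simulated data. Alternatives were RLE and upper quartile factors, no filter, voom with quality weights (limma 3.58.1), DESeq2 1.42.0, a filter of 5 CPM in 3 libraries, a replicate block, muscle or odorant receptor covariates, 2 strains alone, and each library left out. Named in full are TpnC4, Mhc, called members, the 2 highest per kb in each role, those with extreme spread, all actins and troponin C genes, and up to 4 called genes of each other list.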

Additional observations from a re-analysis of the deposited data

How the results depend on the processing

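The number of muscle genes called in each comparison of strains was as reported under the other size factors, filters, covariates and DESeq2. It was also the same in fits to 2 strains alone and omissions of 1 library. Only voom differed, with 0 called in hybrid minus RG11N and hybrid minus CO13N, where TpnC4 had log2 differences of 3.73 and 4.07. On the muscle slope 16 of the 22 genes outside the core were called in the main fit, where 1.89% of all genes were called. The number was 18 with DESeq2 (302 of all 10996 genes) and 18 with voom (299 of 10996). Without hybrid replicate 2 it was 17 (199 of 11520). The 10 core genes define the level, so their calls are circular and are left out of these counts. Over the omissions TpnC4 kept its calls. Values that changed sign were not called in any setting. The slope of TpnC4 was 0.24 with the replicate block and -0.23 to 0.14 over the omissions. Mhc changed sign with the muscle covariate in CO13N minus CS (0.19), hybrid minus CS (0.14) and hybrid minus mid-parent (0.045), where it is itself part of the covariate. In selective minus promiscuous Mhc was -0.042 with voom, -0.21 with the replicate block and -0.15 with odorant receptor sums. Over the omissions Mhc ranged -1.66 to 0.41 in CO13N minus CS, -0.35 to 1.91 in CO13N minus RG11N, -0.39 to 1.28 in hybrid minus RG11N, -1.46 to 0.82 in hybrid minus CO13N and -0.59 to 0.54 in selective minus promiscuous; the cause was not tested. Without CO13N replicate 1, Mhc was -0.35 in CO13N minus RG11N and 0.82 in hybrid minus CO13N. Between libraries of equal replicate number, correlations of the deviations from the strain means ran from -0.09 to 0.21. With 3 libraries per strain these values cannot show whether equal numbers shared a batch. Replicate 1 had the highest share of muscle counts in CO13N (3.04%), the hybrid (1.71%) and CS (2.79%), and the lowest in RG11N (0.397%). The replicate block moved the count of all genes with any strain difference from 711 to 807 and changed no count of muscle genes. DESeq2 called more genes in all, 1322 for any strain difference, 645 in CO13N minus CS, 828 in CO13N minus RG11N, 230 in hybrid minus CS, 852 in hybrid minus RG11N, 1034 in RG11N minus CS, 88 in hybrid minus CO13N, 778 in selective minus promiscuous and 43 in hybrid minus mid-parent, against 711, 345, 451, 107, 492, 634, 28, 431 and 12. With odorant receptor sums the counts were 98 in CO13N minus CS, 70 in hybrid minus CS, 369 in RG11N minus CS, 13 in hybrid minus CO13N and 208 in selective minus promiscuous. RG11N and CS alone gave 355, voom gave 53 in hybrid minus CO13N and 2 in hybrid minus mid-parent, and no filter gave 20 in hybrid minus mid-parent. Omissions brought 206 in CO13N minus CS, 245 in CO13N minus RG11N, 65 in hybrid minus CS, 264 in hybrid minus RG11N, 378 in RG11N minus CS, 7 in hybrid minus CO13N and 128 for the muscle slope at their lowest, and 21 in hybrid minus mid-parent at their highest. Depth limits TpnC4 in CO13N and RG11N, at 4 to 22 counts per library, and fln and TpnC47D, the 32 genes' least counted; the filter of 5 CPM in 3 libraries left 30 of the 32 genes.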

Other observations

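Genes outside the lists also followed the muscle level. At an adjusted p under 0.05 in edgeR, 170 such genes were called on the slope, 167 with a positive and 3 with a negative one. The genes named here were chosen after their values were seen. The lowest p belonged to CG9297, with a slope of 1.03 ± 0.05 (log2 change per log2 unit, SE) and a range of 130.0 to 1806 CPM over the 12 libraries, followed by CG5177 (0.996 ± 0.05, 14.6 to 191 CPM) and hlk (0.96 ± 0.05, 22.0 to 250.3 CPM). Mpcp1, a mitochondrial phosphate carrier, had a slope of 0.97 ± 0.06 and Gyg, glycogenin, which primes glycogen synthesis, 0.67 ± 0.05. Hsc70-1, a heat shock cognate protein, had 0.95 ± 0.07, the small heat shock protein gene l(2)efl 0.88 ± 0.09 and LUBEL, a linear ubiquitin ligase, 0.95 ± 0.05. RIC-3, which helps acetylcholine receptors to fold, had 0.67 ± 0.05. These genes thus rose with the sarcomere genes across libraries of equal strain.

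The 3 genes that fell as the muscle level rose were Tdc1, a tyrosine decarboxylase (-0.40 ± 0.07, 20.0 to 99.0 CPM), jhamt, a methyltransferase of juvenile hormone synthesis (-0.27 ± 0.05, 34.8 to 109 CPM), and pippin (-0.37 ± 0.09, 4.35 to 19.6 CPM).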
